A study of Homo sapiens with 12 samples.

Results

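HNRNPUL1 and its paralogs HNRNPUL2 and HNRNPU were examined in RNA of the NO and CN fractions, in cells with (HEK WT) and without (HEK UL1 KO) an intact HNRNPUL1 gene. The 3 genes were taken by symbol from the deposited count tables, which list 61163 genes, and all 3 were present in each table and passed the filter on low counts in both fractions. HEK WT is the human embryonic kidney line HEK293T without editing, and HEK UL1 KO is the same line after CRISPR-Cas9 editing with guides to exons 2 and 3 of HNRNPUL1. NO is the nucleolar fraction and CN the fraction that pools cytoplasm with the rest of the nucleus. Each combination of genotype and fraction had 3 libraries of total RNA from which rRNA was not depleted. The sources used here do not state whether HEK UL1 KO is a single clone, and no second knockout line was analysed here, so an effect of HNRNPUL1 and a property of this line cannot be told apart.

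The hnRNP U family is a small group of abundant nuclear RNA-binding proteins that combine a SAP domain, which binds DNA, with a SPRY domain and RGG-rich stretches that bind RNA. HNRNPU, also called scaffold attachment factor A, binds nascent transcripts and chromatin and takes part in splicing and in the organization of the nucleus. HNRNPUL1 encodes hnRNP UL1, which was found as a partner of an adenoviral protein and is known from mRNA export and from the resection of DNA breaks, where hnRNP UL2 acts with it.

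In GENCODE release 44 on GRCh38, HNRNPUL1 spans chr19:41262496-41307787 on the plus strand, HNRNPUL2 spans chr11:62712630-62727457 on the minus strand, and HNRNPU spans chr1:244840638-244864560 on the minus strand. Exon 2 of HNRNPUL1 (chr19:41268223-41268345, 123 bases) and exon 3 (chr19:41272082-41272235, 154 bases) are coding in full and belong to 10 and 11 of the 14 coding transcripts. They are shown because the guides were directed to them. Capitals mark the exon and lower case marks 15 intron bases on each side, on the plus strand of GRCh38.
HNRNPUL1 exon 2: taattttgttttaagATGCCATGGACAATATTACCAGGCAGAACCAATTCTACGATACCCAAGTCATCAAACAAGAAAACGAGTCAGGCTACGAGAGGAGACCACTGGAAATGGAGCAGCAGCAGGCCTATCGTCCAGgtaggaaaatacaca
HNRNPUL1 exon 3: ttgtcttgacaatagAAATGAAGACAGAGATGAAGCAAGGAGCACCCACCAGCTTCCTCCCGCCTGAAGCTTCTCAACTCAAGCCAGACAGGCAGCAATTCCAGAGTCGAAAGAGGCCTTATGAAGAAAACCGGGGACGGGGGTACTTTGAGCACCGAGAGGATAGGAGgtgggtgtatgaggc
The exons hold 277 bases together, or 7.06% of the 3925 bases of the reference transcript. Loss of both whole exons from an evenly read reference transcript would alone lower its count by 0.11 on the log2 scale. Which bases are missing in HEK UL1 KO was not examined, and the cause of the fall reported below was not tested.

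**Figure D1:**
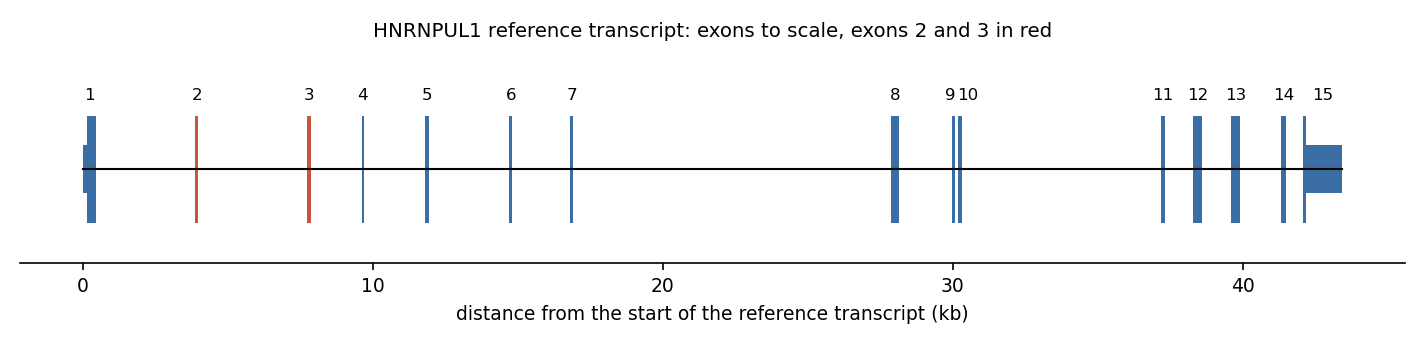
Exons of the HNRNPUL1 reference transcript by distance from its start in kb, drawn to scale with coding parts taller. Exons 2 and 3 of 15 are in red, and 295 coding bases lie before them in exon 1.

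Reads of the 3 genes could be told apart by sequence. The coding sequences of the paralogs were 59.9 to 61.5% identical over aligned bases, and 0 windows of 75 bases, the read length, were shared between any pair. The longest run that HNRNPUL1 shared with HNRNPUL2 had 15 bases, and it is shown because it marks how short an exact match between these paralogs is.
Longest run of HNRNPUL1 and HNRNPUL2: ATGAAAGCCAACTTC
HNRNPU and its processed pseudogene HNRNPUP1 shared 15 such windows, and HNRNPUP1 held 13 to 69 counts per library, between 0.419 and 0.771% of the HNRNPU count. HNRNPUL2-BSCL2, a readthrough transcript annotated over HNRNPUL2 and its neighbour BSCL2, held between 1.02 and 1.05 times the sum of the counts of those genes in all 12 libraries. The counts of HNRNPUL2 and of the readthrough transcript are therefore not separate measurements.

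Libraries of NO held between 37141666 and 83019079 counts, of which rRNA took 55.3 to 65.1%. Those of CN held between 54349399 and 104040073, of which rRNA took 73.9 to 78.7%. Levels are given as CPM, a gene's counts per 1e6 counts of the library after scaling by TMM, a method that aligns the bulk of the genes between libraries. In NO, the TMM factor of HEK WT replicate 3 was 1.40, against 0.690 and 0.622 for the other HEK WT libraries and 1.09 to 1.34 for HEK UL1 KO, so the KO effects in NO are also given without that library. SNORD3A, the nucleolar U3 RNA, had a median of 7723 unscaled CPM in NO and 263 in CN. Markers of HEK293 cells (VIM, KRT8, KRT18, PAX2 and NEFM) summed to 23.8 to 39.6 unscaled CPM in NO and 21.8 to 38.3 in CN, with HEK UL1 KO below HEK WT in each fraction. Markers of blood, liver, endothelium and muscle (PTPRC, ALB, PECAM1 and MYOD1) summed to 1.77 to 6.42 unscaled CPM in NO. In CN their sum was 0.183 to 1.12, higher in each HEK UL1 KO library than in any HEK WT library, and ALB and MYOD1 were at 0 counts in some libraries. The part of these differences in the results below was not tested.

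RNA of the targeted gene fell in both fractions but was not lost. The paper reports that the protein was silenced in HEK UL1 KO, by western blot and immunofluorescence. Counts over the whole gene do not measure protein. In CN, HNRNPUL1 had 1495, 1290 and 1422 counts in the HEK WT libraries and 347, 360 and 288 in the HEK UL1 KO libraries. These counts correspond to 17.7, 15.4 and 17.97 CPM in HEK WT and 4.74, 4.79 and 4.86 CPM in HEK UL1 KO. Every knockout library lay below every wild-type library. The log2 fold change was -1.83 ± 0.0828 (SE, edgeR, adjusted p = 2.12e-07), and the level in HEK UL1 KO was 28.2% of HEK WT (95% interval 24.8 to 32.0%).

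In NO, HNRNPUL1 had 594, 697 and 551 counts in HEK WT and 453, 164 and 152 in HEK UL1 KO, which correspond to 15.2, 21.5 and 9.28 CPM against 4.08, 3.85 and 3.56 CPM. The groups again did not overlap, although the HEK WT libraries were spread over a wider range than those of HEK UL1 KO. The log2 fold change was -1.997 ± 0.323 (SE, edgeR, adjusted p = 0.00649), or 25.0% of HEK WT (95% interval 15.6 to 40.2%). Among all genes tested, 0.939% passed the test in NO, 0.574% as lower, and 37.9% passed in CN. Without HEK WT replicate 3, the log2 fold change in NO was -2.27 (edgeR adjusted p = 6.02e-05). The call in NO was lost with total counts in place of TMM (-1.42, edgeR adjusted p = 0.256) and with total counts outside rRNA (-1.39, adjusted p = 0.0944). Nothing in the sources ties the p-values to more than the spread between these libraries, which the submitters describe as biological triplicates.

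HNRNPU, the most abundant of the family, was lower in the CN fraction of the knockout. It had 9541, 8978 and 9098 counts in HEK WT and 5655, 6271 and 4716 in HEK UL1 KO, or 113, 107 and 115 CPM against 77.3, 83.5 and 79.5 CPM. The groups did not overlap. HNRNPU fell by 0.48 ± 0.0773 on the log2 scale (SE, edgeR, adjusted p = 0.000748), and its level was 71.6% of HEK WT (95% interval 63.6 to 80.6%). Since 22.3% of all genes tested were called lower in CN, a call of this direction was common in that fraction, and 17.5% of genes had a lower log2 fold change than HNRNPU. The call was lost with total counts (-0.28, edgeR adjusted p = 0.194) and when all 12 libraries shared one fit (-0.57, adjusted p = 0.197). The median over all genes itself was 0.04 with TMM and 0.24 with total counts. Relative to that median HNRNPU lay at -0.52 under each of 5 scalings. A scaling moves all genes by nearly the same amount, so this agreement was nearly fixed in advance and is no support for the call.

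In NO, HNRNPU had 4928, 4752 and 3917 counts in HEK WT and 6665, 1916 and 3579 in HEK UL1 KO. Scaled, these were 126, 147 and 66.0 CPM against 60.1, 45.03 and 83.8 CPM. HEK WT replicate 3 lay below HEK UL1 KO replicate 3, so the groups overlapped. The log2 fold change of -0.84 did not pass the test (95% interval -1.68 to -0.012, edgeR adjusted p = 0.305), and it passed without HEK WT replicate 3 (-1.13, adjusted p = 0.02), a fit in which 9133 genes were called against 327 with all libraries.

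HNRNPUL2, the closest in known function to HNRNPUL1, showed no change that passed the test in either fraction. In CN it had 540, 504 and 493 counts in HEK WT and 446, 502 and 403 in HEK UL1 KO, or 6.41, 6.02 and 6.23 CPM against 6.09, 6.68 and 6.80 CPM. The ranges overlapped. The log2 fold change was 0.07 ± 0.0805 (SE, edgeR, adjusted p = 0.526), with a 95% interval of -0.11 to 0.25. The bounds correspond to levels of 92.7 and 119% of HEK WT.

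In NO, HNRNPUL2 had 285, 301 and 203 counts in HEK WT and 492, 187 and 238 in HEK UL1 KO, or 7.31, 9.30 and 3.42 CPM against 4.43, 4.39 and 5.57 CPM. The knockout libraries lay inside the range of the wild-type libraries. The log2 fold change of -0.47 had a wide interval, from -1.16 to 0.22 (edgeR adjusted p = 0.481), and its sign turned with total counts (0.13). The median over all genes in NO was 0.0040 with TMM and 0.40 with total counts. Relative to that median HNRNPUL2 lay between -0.48 and -0.27 under the 5 scalings, HNRNPU between -0.85 and -0.66, and HNRNPUL1 between -2.01 and -1.82. As a scaling moves all genes nearly alike, these ranges are no test of the calls. Without HEK WT replicate 3 the log2 fold change of HNRNPUL2 was -0.81 and passed the test (edgeR adjusted p = 0.0216).

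**Figure D2:**
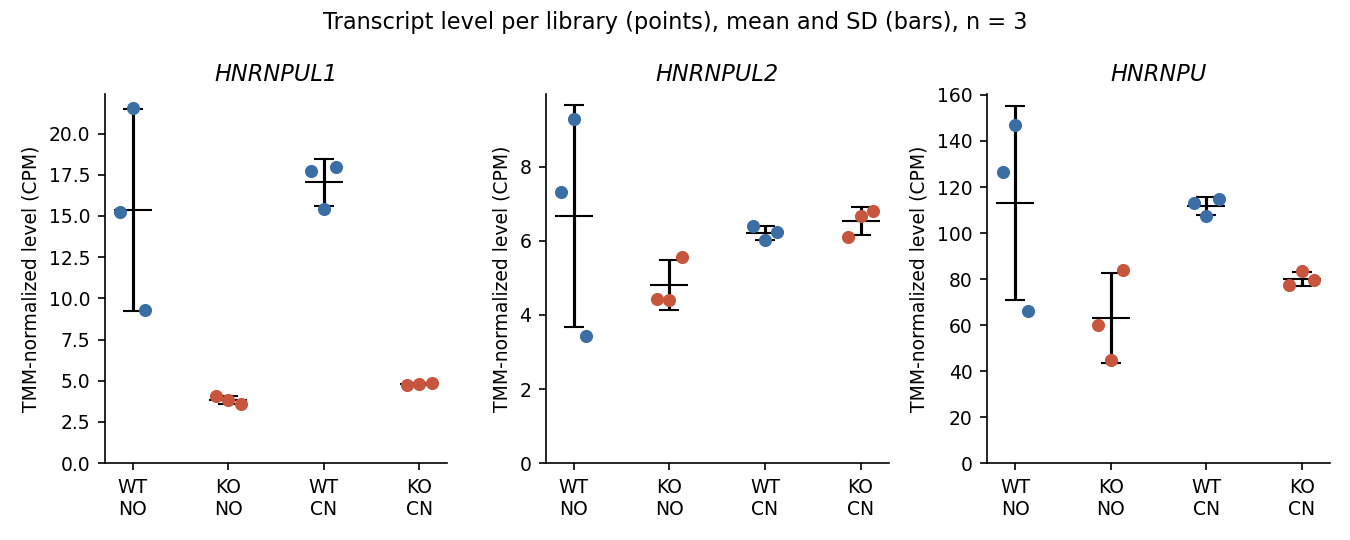
TMM-scaled CPM of each gene by genotype and fraction, with points for libraries and bars for mean and SD (n = 3). HNRNPUL1 did not overlap between genotypes in either fraction, and HNRNPU did not overlap in CN. The share of all genes without overlap is not given here. HEK WT replicate 3 is the lowest wild-type point of each gene in NO.

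**Figure D3:**
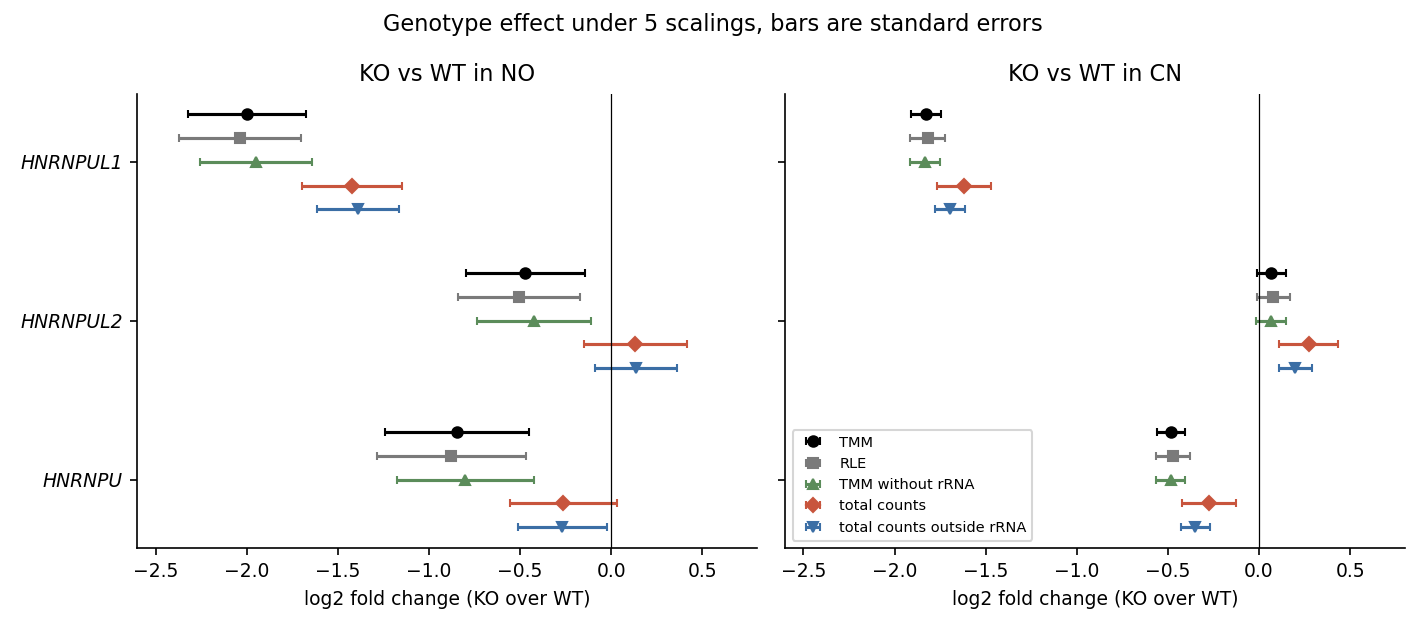
Log2 fold change of HEK UL1 KO over HEK WT with its standard error under 5 scalings of the libraries. HNRNPUL1 stays below 0 throughout, while HNRNPUL2 in NO moves from -0.47 with TMM to 0.13 with total counts.

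The KO effect did not differ detectably between the fractions for any of the 3 genes. The interaction of genotype and fraction is the log2 effect in NO minus that in CN, in a joint fit of all 12 libraries. That fit has its own scaling and filter, so its values are not the differences of the effects given above. The interaction was -0.0025 for HNRNPUL1 (95% interval -0.60 to 0.59), -0.37 for HNRNPUL2 (-1.11 to 0.36) and -0.19 for HNRNPU (-1.02 to 0.64). The edgeR adjusted p was 1.0 for each. The intervals are wide, and 0.114% of all genes tested passed.

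Ratios between the genes within a library do not depend on how libraries are scaled. In CN, the log2 ratio of HNRNPUL1 to HNRNPUL2 counts was 1.47, 1.36 and 1.53 in HEK WT and -0.36, -0.48 and -0.48 in HEK UL1 KO. HNRNPUL1 thus had more counts than HNRNPUL2 in every wild-type library and fewer in every knockout library. The same held in NO, where the ratio was 1.06, 1.21 and 1.44 in HEK WT and -0.12, -0.19 and -0.65 in HEK UL1 KO. The mean difference was -1.89 in CN and -1.56 in NO.

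The ratio of HNRNPUL2 to HNRNPU was higher in the knockout. In CN it was -4.14, -4.15 and -4.21 in HEK WT and -3.66, -3.64 and -3.55 in HEK UL1 KO, a difference of 0.55. In NO it was -4.11, -3.98 and -4.27 against -3.76, -3.36 and -3.91, a difference of 0.45. The genotypes did not overlap in either fraction, including with HEK WT replicate 3 of NO in place.

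The ratio of HNRNPUL1 to HNRNPU differed by -1.34 in CN and -1.11 in NO, again without overlap. Each of the 6 ratio comparisons gave p = 0.1 in an exact two-sided permutation test, also after adjustment over the 6. That is the smallest p that 3 libraries against 3 allow. Within a fraction each log2 ratio follows from the others, so the 6 comparisons are not separate. How often other pairs of genes do not overlap was not computed. As a share of the counts of the 3 genes, HNRNPUL1 took 12.6 ± 0.541% in CN of HEK WT and 5.25 ± 0.179% in HEK UL1 KO (SD, n = 3). HNRNPUL2 took 4.61 ± 0.113% and 7.14 ± 0.281%, and HNRNPU took 82.8 ± 0.488% and 87.6 ± 0.356%.

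**Figure D4:**
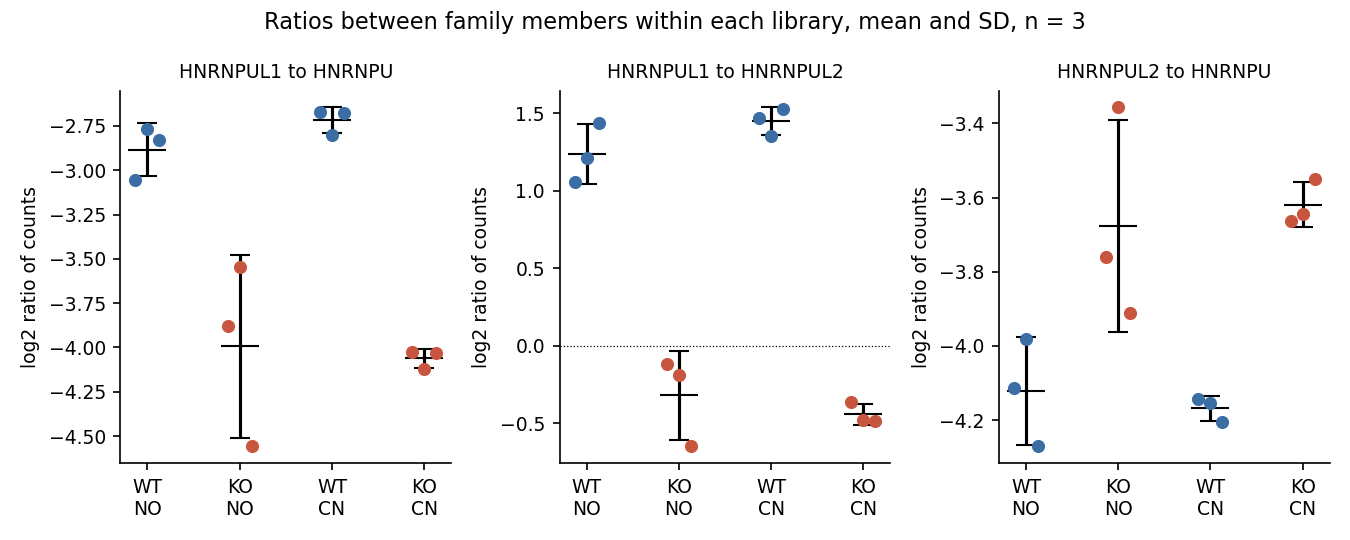
Log2 ratio of counts between pairs of genes within each library, by genotype and fraction, with mean and SD (n = 3). The genotypes do not overlap in any of the 6 comparisons, which are not separate, as each ratio follows from the others of its fraction. The overlap of other pairs of genes was not computed. HNRNPUL1 to HNRNPUL2 crosses 0 (dotted line), where the counts are equal.

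Per kb of the reference transcript, HNRNPU had the highest level in each group. In CN of HEK WT the levels were 16.3 ± 0.584 CPM per kb for HNRNPU, 4.34 ± 0.360 for HNRNPUL1 and 1.19 ± 0.0369 for HNRNPUL2 (SD, n = 3), and neighbours in this order did not overlap. In CN of HEK UL1 KO they were 11.7 ± 0.459, 1.22 ± 0.0148 and 1.25 ± 0.0724, so HNRNPUL1 and HNRNPUL2 differed by less than their spread. In NO of HEK UL1 KO the same pair stood at 0.976 ± 0.0668 and 0.921 ± 0.129, again within the spread. Whether this pair differed by more than its spread depended on the length used, and in NO so did its order. Per kb of all annotated exon bases (6691 for HNRNPUL1 and 5401 for HNRNPUL2), HNRNPUL1 and HNRNPUL2 stood at 0.717 ± 0.00870 and 1.21 ± 0.0699 in CN of HEK UL1 KO and at 0.573 ± 0.0392 and 0.889 ± 0.124 in NO, without overlap (SD, n = 3).

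With TMM, HNRNPUL1 was lower in NO than in CN in both genotypes, and HNRNPUL2 and HNRNPU were called lower in HEK UL1 KO. In HEK WT, the log2 fold change of NO over CN was -0.66 for HNRNPUL1 (edgeR adjusted p = 0.0251), -0.42 for HNRNPUL2 (adjusted p = 0.181) and -0.49 for HNRNPU (adjusted p = 0.104), so 1 of 3 was called lower, where 20.9% of all genes tested were. In HEK UL1 KO the values were -0.92 (adjusted p = 0.00017), -1.05 (adjusted p = 0.000142) and -0.95 (adjusted p = 0.00244), where 35.6% of genes were called lower. With total counts none of these calls remained, with values of -0.37, -0.16 and -0.21 in HEK WT and -0.17, -0.30 and -0.20 in HEK UL1 KO for the genes in the same order. That scaling put the median over all genes at 0.37 in HEK WT and 0.79 in HEK UL1 KO. It called 2.13% of all genes tested lower in HEK WT and 2.43% in HEK UL1 KO. Relative to the median the genes lay between -0.74 and -0.43 in HEK WT and between -1.10 and -0.95 in HEK UL1 KO under the 5 scalings. Here too a scaling moves all genes nearly alike, so these ranges are no support for the calls. HNRNPUL1 in HEK WT also lost its call without HEK WT NO replicate 1 (-0.71, adjusted p = 0.0569), CN replicate 1 (-0.70, adjusted p = 0.0638) or CN replicate 3 (-0.66, adjusted p = 0.0661). The same held with replicate number as a block (-0.69, edgeR adjusted p = 0.0606). Without HEK WT NO replicate 2, HNRNPUL2 (-0.80, adjusted p = 0.0196) and HNRNPU (-0.80, adjusted p = 0.0223) passed, in a fit that called 8820 of 33464 genes lower. A level here is a share of a fraction's RNA, and fewer molecules per cell cannot be told apart from more of other RNA.

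Other hnRNP genes encode RNA-binding proteins of splicing, export and mRNA stability without being paralogs of HNRNPU. In CN, 14 of 23 were called lower in HEK UL1 KO and 9 did not pass, where 22.3% of all genes were called lower, and the median log2 fold change was -0.29 against 0.04 over all genes. HNRNPH1, which binds G-rich RNA in splicing, went from 76.4 ± 1.32 to 44.96 ± 2.15 CPM (log2 -0.77, edgeR adjusted p = 2.76e-05). HNRNPK, a KH-domain protein that binds C-rich RNA, went from 69.6 ± 4.59 to 43.1 ± 1.57 CPM (-0.69, adjusted p = 8.06e-05), and HNRNPAB from 13.4 ± 1.42 to 9.15 ± 0.458 CPM (-0.55, adjusted p = 0.000834). The fall of HNRNPU was thus within the range of its wider class. With total counts, 2 of the 23 were called lower, HNRNPH1 and HNRNPK, where 6.35% of all genes were, and the median was -0.08 against 0.24 over all genes. In NO, 0 of 23 passed in edgeR or in DESeq2 (median -0.47), where 0.939% of all genes passed in edgeR and 1082 of 24630 in DESeq2. At an unadjusted edgeR p under 0.05, 4 were lower, as against 16.0% of all genes at that threshold in either direction. Without HEK WT replicate 3, 11 passed as lower, where 15.3% of all genes did.

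Known partners of hnRNP UL1 in break resection, damage signalling and export gave 7 of 12 called lower in CN and 5 that did not pass, where 22.3% of all genes were called lower (median -0.39 against 0.04 over all genes). UIMC1, which encodes the BRCA1-A subunit RAP80, went from 18.7 ± 0.630 to 10.2 ± 0.0912 CPM (log2 -0.87, edgeR adjusted p = 6.45e-06). ATR, a kinase of the replication stress response, changed by -0.71 (adjusted p = 0.000136), and NBN, of the MRE11 complex that starts resection, by -0.60 (adjusted p = 0.000346). With total counts, UIMC1 and ATR alone of the 12 were called lower, where 6.35% of all genes were. In NO, 0 of 12 passed in edgeR (median -0.50), where 0.939% of all genes did. At an unadjusted edgeR p under 0.05, 5 were lower, a threshold that 16.0% of all genes passed in either direction. DESeq2 called 1 lower, where it called 823 of 24630 genes lower. Without HEK WT replicate 3, 6 passed as lower in edgeR, where 15.3% of all genes did.

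Of 12 other genes whose proteins hold a SAP domain, 5 were called lower in CN and 7 did not pass, where 22.3% of all genes were called lower (median -0.17 against 0.04 over all genes). PIAS2 (-0.49, edgeR adjusted p = 0.00271) and PIAS1 (-0.39, adjusted p = 0.00137) encode SUMO ligases, and ACIN1 (-0.30, adjusted p = 0.0157) encodes a splicing-associated protein. DESeq2 also called 5 lower, where it called 5760 of 29838 genes lower. With total counts edgeR called 0, where 6.35% of all genes were called lower. That fit had 0 lower and 2 higher at an unadjusted p under 0.05, which 9931 of 27234 genes passed in either direction. In NO, 0 of 12 passed in edgeR or DESeq2 with all libraries, where 0.939% of all genes passed in edgeR and 1082 of 24630 in DESeq2. At an unadjusted edgeR p under 0.05, 1 was lower, as against 16.0% of all genes in either direction. Without HEK WT replicate 3, 4 passed as lower, where 15.3% of all genes did.

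**Figure D5:**
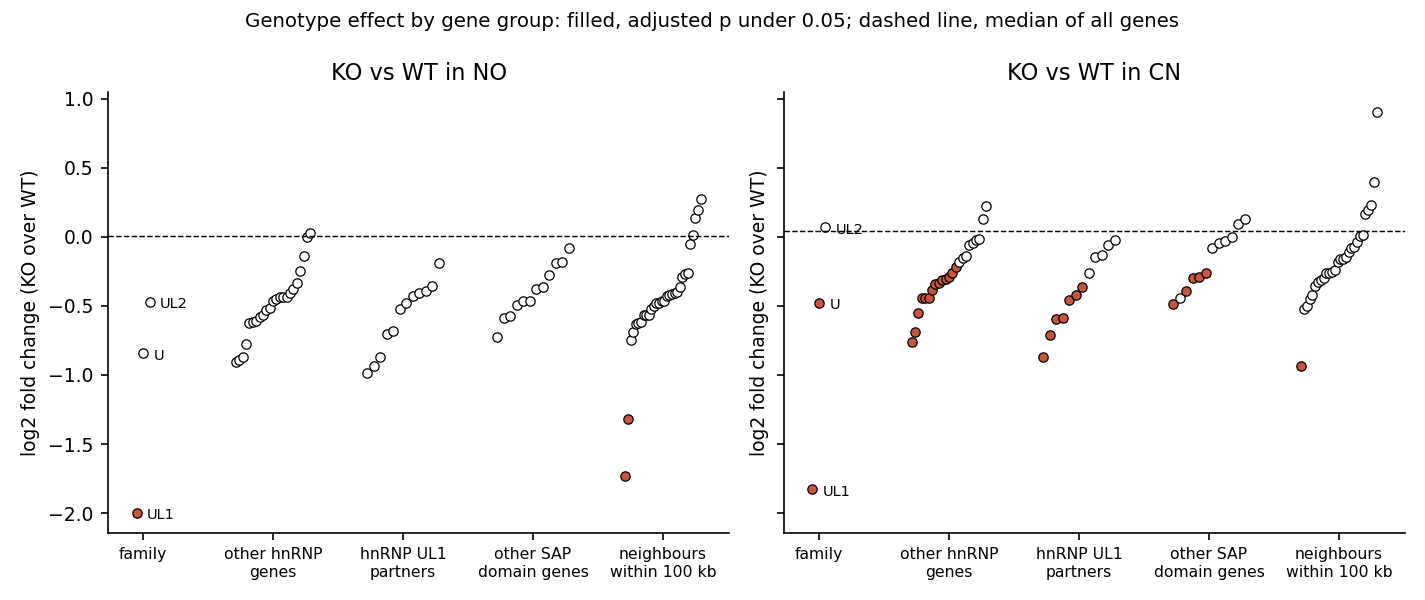
Log2 fold change of HEK UL1 KO over HEK WT for the family and for 4 gene groups, with filled points for genes called lower and the median of all genes as a dashed line. The group labelled partners holds genes tied to hnRNP UL1 by binding or by pathway. HNRNPUL1 is the lowest point in both fractions, and the fall of HNRNPU in CN lies inside the range of the other hnRNP genes.

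Genes within 100 kb of the 3 loci were 44 in the tables, of which 30 were tested in NO and 28 in CN. Of those near HNRNPUL1, 0 of 8 tested in NO and 0 of 6 in CN passed in edgeR or DESeq2. In edgeR, 0.939% of all genes passed in NO and 37.9% in CN. An unadjusted edgeR p under 0.05 was seen for 0 in NO and 1 in CN. Of all genes, 16.0% had such a p in NO, and 13018 of 27234 in CN. Near HNRNPUL2, the small nucleolar RNA gene SNORA57 (-1.73, edgeR adjusted p = 0.0299) and CSKMT (-1.32, adjusted p = 0.0429) were called lower in NO. These were 2 of 30 where 0.574% of all genes were called lower, and neither was called with total counts. SNORA57 lies within the span of CSKMT, so the 2 calls may rest on shared reads and not be separate. Without HEK WT replicate 3, 10 neighbours were called lower in NO, where 15.3% of all genes were. SNORA100, a small nucleolar RNA gene that overlaps HNRNPU, was lower in CN (-0.93, edgeR adjusted p = 0.00154). It was 1 of 28 neighbours called lower there, where 22.3% of all genes were. It had 6 to 157 counts per library, and reads from it and from HNRNPU cannot be told apart where the genes overlap. HNRNPUP1 did not pass in CN (-0.63, adjusted p = 0.0559) or in NO (-1.46, adjusted p = 0.0965).

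The genes whose levels followed each member most closely were ranked by Pearson r over the 12 libraries, with the mean of each fraction subtracted, among 26397 genes. TCEANC2, TLE1, AK4, POGK and CELSR3 were most like HNRNPUL1, with r from 0.988 to 0.994. HNRNPUL2 was most like HNRNPUL2-BSCL2 (r = 0.992), which shares its reads, followed by EFTUD2, TPM4, RPL4P4 and PNN. HNRNPU was most like HNRNPDL (r = 0.996), PDCD5, CPNE1 and 2 entries of YTHDC1. Only the mean of each fraction was subtracted, so r includes the difference between genotypes, and the libraries share their scaling. By Spearman rho, the 5 closest genes of HNRNPUL1, HNRNPUL2 and HNRNPU had 1, 0 and 0 in common with those named. With total counts in place of TMM, 0, 1 and 1 were in common. Among the family, r was 0.82 for HNRNPUL1 with HNRNPU, 0.43 for HNRNPUL1 with HNRNPUL2 and 0.78 for HNRNPUL2 with HNRNPU, and with total counts these were 0.58, -0.47 and 0.27.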

How the data were processed

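Total RNA of 12 libraries, 3 replicates in each of 4 groups, was sequenced in single reads. The authors trimmed reads with Cutadapt 3.7, aligned them to GRCh38 with STAR 2.7.8, counted genes with featureCounts and deposited these counts unnormalized, in a table for each fraction. The strand setting, the handling of reads over several genes and the annotation release are not given in the sources used here, so genes that overlap may share reads. Tool versions are from the submitters' processing notes. The members and gene lists were chosen with earlier results of these data known.

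Counts were tested across all genes with edgeR 4.0.16 in R 4.3.3 (quasi-likelihood F test, filterByExpr with a minimum count of 10 and minimum total of 15, TMM), with Benjamini-Hochberg adjustment and calls under 0.05. Genotypes were compared within each fraction, fractions within each genotype, and the interaction in all 12 libraries. Standard errors were derived from the F statistic. Ratios of counts were compared with exact permutation tests. In each list, up to 3 called genes each way with the largest change were named. Likeness used log2 CPM with 2 counts added. Alternatives were DESeq2 1.42.0, other scalings and filters, a replicate block, a shared fit and leaving out each library; list counts without a library or with total counts, values relative to the median and levels per kb of all exons were added after the data had been seen. The procedures were tested on simulated counts. Libraries of a group differed by more than sampling noise, with a chi-square per gene of 17.1 to 104, and each was counted as a replicate. Counting error alone limits a gene with 0 counts to an upper bound between 0.0288 and 0.0808 unscaled CPM, from 3 counts of the total. Positions and exon sequences were taken from GENCODE release 44 and GRCh38, and neighbours from RefSeq GRCh38.p14, in which all 3 symbols matched.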

Additional observations from a re-analysis of the deposited data

How the results depend on the processing

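The lowest count of HNRNPUL1 was 152, in NO, where its SD over HEK WT libraries was 6.13 CPM, against 1.41 CPM in CN. HNRNPUL1 was called lower in 14 of 16 fits in NO and 16 of 16 in CN, and HNRNPU in CN in 14 of 16. Leaving out a library gave ratio differences of -1.39 to -1.31 in CN and -1.33 to -0.83 in NO for HNRNPUL1 to HNRNPU, and 0.51 to 0.57 in CN and 0.29 to 0.56 in NO for HNRNPUL2 to HNRNPU. For what follows the cause was not tested.

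Of genes tested for the KO effect in NO, 327 were called with all libraries, 1082 with DESeq2, 10 with total counts, 27 with total counts outside rRNA, 1190 without a filter, 143 with at least 10 counts in every library, 1745 in a fit of all 12 libraries, and 123 to 9133 when a library was left out. In CN, 10324 were called, against 5430 with total counts and 4215 in the fit of all 12. Lower calls made up 61.2% in NO and 30% with total counts, and 58.8% in CN and 31.9% with total counts. With total counts, HNRNPUL1 in NO was at -1.42, HNRNPUL2 in NO at 0.13 and HNRNPU in CN at -0.28; with total counts outside rRNA, HNRNPUL1 in NO was at -1.39 and HNRNPUL2 in NO at 0.14. In the fit of all 12, HNRNPUL2 in CN was at -0.015 and HNRNPU in CN at -0.57. Leaving out a library gave -0.81 to -0.13 for HNRNPUL2 and -1.13 to -0.58 for HNRNPU in NO. The mean CPM of HNRNPUL2 in NO was higher in HEK UL1 KO by 0.504 with total counts and by 1.31 with total counts outside rRNA.

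For NO against CN in HEK WT, 15494 genes were called, with 7011 by total counts, 8759 with at least 10 counts in every library and 9577 with the replicate block. HNRNPUL1 was at -0.37 with total counts, -0.58 with TMM without rRNA, -0.44 with at least 10 counts and -0.69 with the replicate block (edgeR adjusted p = 0.0606), each past the threshold no longer, and at -1.05 to -0.46 without a library. HNRNPUL2 passed with total counts outside rRNA (-0.85) and without a filter (-0.64), and gave -0.80 to -0.15 without a library. HNRNPU passed with DESeq2 (-0.73), total counts outside rRNA (-0.91) and no filter (-0.72), and gave -0.80 to -0.28 without a library. Lower calls over all genes were 8304 of 45206 with DESeq2, 10280 of 29340 with total counts outside rRNA and 8491 of 57449 without a filter. Total counts outside rRNA put the median over all genes at -0.35. In HEK UL1 KO, total counts gave -0.17 for HNRNPUL1, -0.30 for HNRNPUL2 and -0.20 for HNRNPU, none past the threshold, and 13159 genes were called with at least 10 counts in every library, against 26287.

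For the interaction, 43 genes were called, against 79 with DESeq2, 0 with total counts in edgeR (461 at an unadjusted p under 0.05), 18 with total counts outside rRNA, 104 without a filter, 20 with at least 10 counts, 16 with the replicate block and 25 to 57 without a library. HNRNPUL1 turned to 0.20 with total counts, 0.31 with total counts outside rRNA, 0.081 with at least 10 counts and 0.051 with the replicate block, and lay at -0.25 to 0.29 without a library (0.29 without HEK WT NO replicate 2, 0.037 and 0.019 without HEK UL1 KO NO replicates 2 and 3, 0.069 without HEK WT CN replicate 2). HNRNPU turned to 0.014 with total counts and 0.081 outside rRNA, and lay at -0.48 to 0.031 without a library (0.022 without HEK WT NO replicate 2, 0.031 without HEK UL1 KO NO replicate 2).

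Same-numbered libraries did not deviate together, with correlations from -0.54 to -0.04 in the 12 pairs, and the numbers were not taken as a pairing. Deviations from a mean of 3 libraries are tied together, so these correlations cannot settle whether NO and CN of a number share a culture. With the replicate block, 224 genes were called in NO and 8438 in CN, no KO effect of the 3 genes changed its call, and 1 neighbour was called lower in NO, against 2.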
